A study of Mus musculus with 2 samples.

Results

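The mir-130 and mir-148 families are 2 groups of microRNAs with overlapping seeds, and 7 of the 2202 annotated microRNA genes counted here belong to them. The members were found by gene symbol: Mir130a, Mir130b, Mir301 and Mir301b for the mir-130 family, and Mir148a, Mir148b and Mir152 for the mir-148 family. The rule uses names and no measured value. They were counted in microRNA-seq libraries of hippocampus from B6CASTF1/J females at 10 days of age, which are hybrids of the C57BL/6J and CAST strains. The series holds 1 group of 2 libraries, each labelled a biological replicate and made from its own pool of 3 females, so a pooled value hides the spread between single animals and no condition could be compared. Levels, composition and the difference between the libraries were therefore measured. Unless stated otherwise, levels are given as mean ± SD over the 2 libraries, in counts per 1000000 sense-strand counts on microRNA genes (CPM).

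A microRNA is cut from a hairpin precursor as a short duplex, and 1 arm of that duplex is loaded into an Argonaute protein. The loaded arm finds messenger RNAs mainly by pairing of its seed, bases 2 to 8 from the 5′ end, and lowers their stability and translation. In both families the 3p arm is the usual guide. The mir-130 family was described in vessel formation through Mir130a, while the mir-148 family is known for repressing the DNA methyltransferase Dnmt1. The files count reads per gene and do not separate the arms.

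The 3p arms are shown first because the relation of the families lies in their first bases. RefSeq (GRCm38.p6) gave 13 mature arms for the 7 members, of which 6 were 3p arms and 7 were 5p arms. For Mir301b the RefSeq set used here held a 5p arm and no 3p arm. Each sequence is written 5′ to 3′ and capitals mark the seed.
miR-130a-3p: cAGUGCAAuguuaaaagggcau
miR-130b-3p: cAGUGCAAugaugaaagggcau
miR-301a-3p: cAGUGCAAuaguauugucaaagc
miR-148a-3p: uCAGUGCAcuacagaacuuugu
miR-148b-3p: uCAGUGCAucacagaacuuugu
miR-152-3p: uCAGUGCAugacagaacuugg

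All 6 of these arms held the 7 bases CAGUGCA. The stretch started at base 1 in the 3 mir-130 arms and at base 2 in the 3 mir-148 arms, so the same letters were read as seeds 1 base apart, AGUGCAA and CAGUGCA. The perfect matches to these seeds in a messenger RNA are UUGCACU and UGCACUG, and the 8 letters UUGCACUG contain both. Within the mir-130 family the 3 arms shared their first 9 bases, CAGUGCAAU. The mir-148 arms shared their first 8 bases, UCAGUGCA, and a second stretch of 9 bases from base 11, ACAGAACUU.

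Within each family some members differed by few bases, which matters for assigning reads. Counting from 1 at the 5′ end, with the base of the second-named arm first, miR-130b-3p differed from miR-130a-3p by U11A and A13G. miR-148b-3p differed from miR-148a-3p by C9U and U10C. miR-152-3p, at 21 bases 1 shorter than the other two, differed from miR-148b-3p by C10G and U20G. The longest stretch that a member's annotated hairpin shared with any other microRNA gene, on either strand, was 17 nt, for Mir130a with Mir6389, and the shortest was 13 nt, for Mir152. The 6 printed 3p arms are 21 to 23 nt long, so no read covering one of them whole could match another annotated microRNA gene exactly. The 3p arm of Mir301b was not at hand, so its differences from miR-301a-3p were not counted. Places outside microRNA genes were not searched. Since the mature arms are of nearly equal length and a read covers about 1 arm, the levels of the genes below were compared without scaling by length. Differences in how well each sequence is captured in a library were not tested.

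The 5p arms formed other groups. miR-301a-5p and miR-301b-5p shared the seed CUCUGAC, and they are printed because the 5p arm is the arm of Mir301b at hand. miR-148a-5p and miR-148b-5p shared the seed AAGUUCU, while miR-130a-5p (CUCUUUU), miR-130b-5p (CUCUUUC) and miR-152-5p (AGGUUCU) each had a seed that no other member shared.
miR-301a-5p: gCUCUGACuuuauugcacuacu
miR-301b-5p: gCUCUGACuagguugcacuacu

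The 7 genes lie at 6 places in the genome, given here on GRCm38 (mm10) with GENCODE M21. Mir130a (ENSMUSG00000065484.1, chromosome 2, 84741115 to 84741178, minus strand) overlaps no other annotated gene; the nearest one, Gm19426, lies 990 bp away. Mir130b (ENSMUSG00000065572.1, chromosome 16, 17124061 to 17124142, minus strand) and Mir301b (ENSMUSG00000076288.1, chromosome 16, 17124400 to 17124496, minus strand) are separated by 257 bp within an intron of 2610318N02Rik. Mir301 (ENSMUSG00000065589.1, chromosome 11, 87113004 to 87113089, plus strand) is intronic to Ska2, which encodes a protein of the spindle and kinetochore complex. Mir148a (ENSMUSG00000065505.1, chromosome 6, 51269812 to 51269910, minus strand) overlaps no other gene, and Gm32479 is nearest at 13621 bp. Mir148b (ENSMUSG00000065560.1, chromosome 15, 103285125 to 103285221, plus strand) is intronic to Copz1, and Mir152 (ENSMUSG00000065515.1, chromosome 11, 96850393 to 96850465, plus strand) to Copz2. Copz1 and Copz2 encode the zeta subunits of the coatomer, the coat of vesicles that travel between Golgi and endoplasmic reticulum. All 5 hosted members lie on their host's strand. Of all 2202 microRNA genes 53.5% lie within another gene on their own strand, and of the detected genes 73.2%, so 5 of 7 is near the share of detected genes. No member has a microRNA gene annotated on its opposite strand.

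The libraries held 5479267 sense counts in replicate 1 and 3563226 in replicate 2. Reads with more than 1 genomic match, 43.2% and 39.3% of all reads, were not assigned to a gene. Of the fixed marker lists, the neuronal microRNAs summed to 26977 and 29632 CPM in the first and second library. Of this list 7 of 9 were detected, where 19.5% of all genes were, and the copies Mir124a-2 and Mir124a-3 fell under the minimum of 10 counts. The copy Mir124a-1 had 10 and 20 counts. Reads that match several of these copies would be among those not assigned, so the level of miR-124 cannot be read from these counts. Vessel wall markers (Mir126a, Mir143, Mir145a) summed to 11756 and 11138 CPM and choroid plexus markers to 4881 and 4705 CPM. The oligodendrocyte list (Mir219a-1, Mir219a-2, Mir338) stood at 1563 and 2041 CPM, of which Mir219a-2 held 48.6% and 61.1%. The microglial list (Mir142, Mir146, Mir155) stood at 1189 and 964 CPM. Mir146 alone held 89.9% and 86.2% of that sum, which therefore says little of Mir142 and Mir155. The blood list stood at 55.5 and 64.3 CPM. The skeletal muscle marker Mir206 had 40.2 and 97.1 CPM. Which cell types the members' reads came from was not tested.

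A gene was called detected when each library held 10 or more counts. Of the 7 members 6 passed this minimum, and the exception was Mir301b. Over all genes 19.5% were detected. Together the members held 0.563% of the sense counts in replicate 1 and 0.658% in replicate 2, or 0.611% ± 0.0667 (SD, n = 2). Nearly all of this came from 1 gene. Without Mir130a the other 6 members held 0.0414% and 0.0429%, a mean of 0.0421% ± 0.00110.

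Mir130a, the member described in vessel formation, was by far the most abundant. Replicate 1 held 28606 of its counts and replicate 2 held 21906, or 5221 CPM (exact Clopper-Pearson interval at 95%, 5161 to 5281) and 6148 CPM (6067 to 6230). The mean was 5684 ± 656 CPM (SD, n = 2), which placed it 36th and 34th among all genes by assigned reads in replicates 1 and 2. Its lowest library stood above the highest library of every other member. The intervals cover the counting error of reads alone, and the spread between the libraries was wider than either interval. They treat each read as independent. PCR copies of 1 molecule cannot be recognised in these reads, so the intervals may be too narrow. In a bulk tissue sample a lower level may come from fewer cells that make a microRNA or from less of it per cell, and these cannot be told apart. The hairpin is printed below because this gene carries the counts of its family, with the 3p arm, bases 42 to 63 of 64, in capitals.
Mir130a hairpin: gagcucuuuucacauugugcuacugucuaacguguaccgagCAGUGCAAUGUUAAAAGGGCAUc

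Mir130b, whose 3p arm has the seed of miR-130a-3p, had 862 and 693 counts, or 157 and 194 CPM (mean 176 ± 26.3). Counts of Mir130a exceeded those of Mir130b 33.2-fold in replicate 1 (counting interval 31.0 to 35.6) and 31.6-fold in replicate 2 (29.3 to 34.1), so the intervals of this ratio overlapped between the libraries. Mir301 had 199 and 265 counts, or 36.3 and 74.4 CPM (mean 55.3 ± 26.9), and its values in the 2 libraries lay far apart. Mir301b, the neighbour of Mir130b, had 20 and 5 counts, or 3.65 CPM (2.23 to 5.64) and 1.40 CPM (0.456 to 3.27). It was the lowest member in both libraries.

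The neighbouring hairpins of chromosome 16 stood at very different levels. Counts of Mir130b exceeded those of Mir301b 43.1-fold in replicate 1 (counting interval 27.7 to 70.9) and 139-fold in replicate 2 (59.1 to 428). The 2 intervals overlapped. Mir301, on chromosome 11, shares a stretch of 16 nt with the hairpin of Mir301b and stood above it in both libraries, at 36.3 and 74.4 CPM.

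In the mir-148 family the levels lay closer together. Mir148b, within Copz1, had 747 and 267 counts, or 136 and 74.9 CPM (mean 106 ± 43.4). Mir148a, known from liver and from cholesterol control, had 319 and 229 counts, or 58.2 and 64.3 CPM (mean 61.2 ± 4.28). Mir152, within Copz2, had 119 and 70 counts, or 21.7 and 19.6 CPM (mean 20.7 ± 1.47). Mir148b was above Mir148a and Mir152 in both libraries, and Mir152 was the lowest of the 3 in both. The SD of the 2 libraries was 6.98% of the mean for Mir148a and 7.09% for Mir152, against 41.1% for Mir148b.

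**Figure D1:**
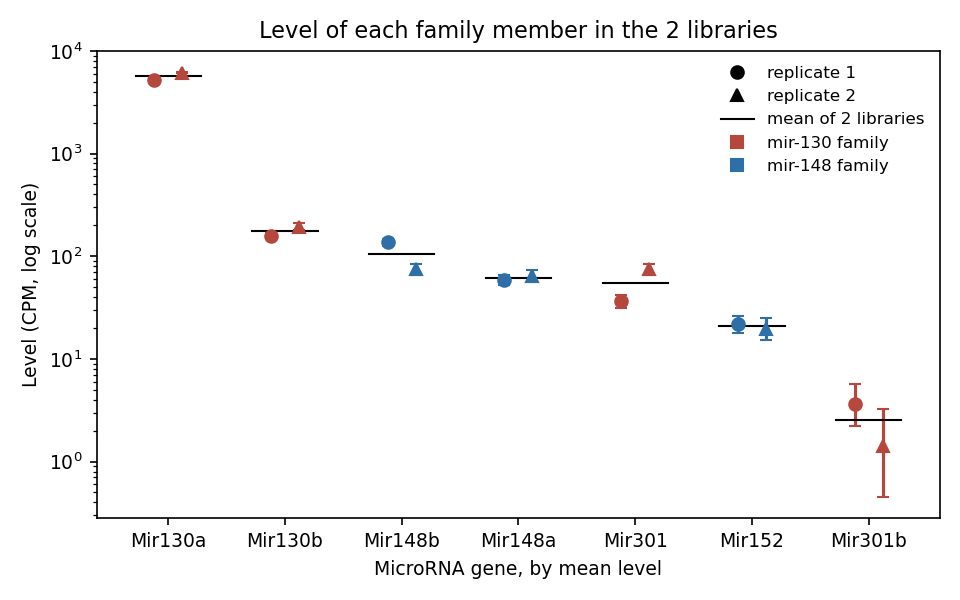
Level of each member on a log axis in CPM, with replicate 1 as a circle, replicate 2 as a triangle, exact 95% counting intervals as bars and the mean of 2 libraries as a line. Mir130a, at 5221 and 6148 CPM, stands above the other members, which lie between 1.40 and 194 CPM, and the values of Mir148a and Mir301 overlap.

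By mean level the order was Mir130a, Mir130b, Mir148b, Mir148a, Mir301, Mir152 and Mir301b. Neighbours were taken as separate where both libraries of one lay above both of the other, and 5 of the 6 neighbouring pairs met this. The exception was Mir148a and Mir301, since Mir148a at 58.2 and 64.3 CPM lay within the range of Mir301. Mir148b and Mir148a were called separate, although their counting intervals in replicate 2 overlapped, at 66.2 to 84.5 and 56.2 to 73.2 CPM. Mir148b and Mir301 were separated by little, as the lowest library of Mir148b had 74.9 CPM and the highest of Mir301 74.4 CPM, both in replicate 2, where their counting intervals overlap. With 2 libraries per gene, a permutation test of a single pair of genes could not reach 0.05.

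The gene next to each member in the order of mean level gives a sense of scale for assigned reads only. Reads with more than 1 genomic match went uncounted, which can lower a gene whose mature arm has further copies. Mirlet7a-2, Mir181a-2 and Mir135a-2 are numbered copies of this kind, and how many of their reads were lost was not tested. Mir130a stood between Mir409 (6268 ± 1509 CPM) and Mir330 (5577 ± 632 CPM). Mir130b stood between Mir345 (178 ± 25.0 CPM) and Mir483 (168 ± 35.3 CPM), and Mir148b between Mirlet7a-2 (109 ± 26.3 CPM) and Mir448 (99.9 ± 18.2 CPM). Mir148a lay between Mir181a-2 (61.7 ± 17.3 CPM) and Snord43 (60.7 ± 9.97 CPM), and Mir301 between Mir1264 (55.7 ± 24.0 CPM) and Mir135a-2 (54.5 ± 37.5 CPM). Mir1264 had 38.7 and 72.7 CPM in replicates 1 and 2, close to Mir301 in each, while Mir135a-2 had 81.0 and 28.1 CPM, the opposite order. Mir152 lay between Gm23935 (21.1 ± 0.698 CPM) and Mir7047 (20.3 ± 2.52 CPM), and Mir301b between Mir6538 (2.53 ± 0.805 CPM) and Mir5122 (2.50 ± 0.436 CPM). In each of these cases the gap to the neighbour was smaller than the spread of the 2 libraries of at least one of the pair. The median level of the 6 detected members was 83.4 CPM, and that of all 429 detected genes 87.8 CPM.

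Mir130a made up nearly the whole mir-130 family in both libraries. Mir130a held 96.4% of the family's counts in replicate 1 (exact Clopper-Pearson interval 96.1 to 96.6) and 95.8% in replicate 2 (95.5 to 96.0), a small difference with intervals that did not overlap. Mir130b held 2.90% (2.72 to 3.10) and 3.03% (2.81 to 3.26), with overlapping intervals. Mir301 held 0.670% (0.581 to 0.770) and 1.16% (1.02 to 1.31), intervals that did not overlap. Mir301b held 0.0674% (0.0412 to 0.104) and 0.0219% (0.00710 to 0.0510), again with overlapping intervals.

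The composition of the mir-148 family differed more. Mir148b held 63.0% of the family's counts in replicate 1 (60.2 to 65.8) and 47.2% in replicate 2 (43.0 to 51.4), while Mir148a held 26.9% (24.4 to 29.5) and 40.5% (36.4 to 44.6). The intervals of neither gene overlapped between the libraries. Mir152 held 10.0% (8.39 to 11.9) and 12.4% (9.77 to 15.4), with overlapping intervals. Counts of Mir148b exceeded those of Mir148a 2.34-fold in replicate 1 (2.05 to 2.68), whereas in replicate 2 the ratio was 1.17 (0.974 to 1.40), an interval that includes equal counts. The ratio of Mir148a to Mir152 was 2.68 (2.17 to 3.34) in replicate 1 and 3.27 (2.49 to 4.34) in replicate 2.

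**Figure D2:**
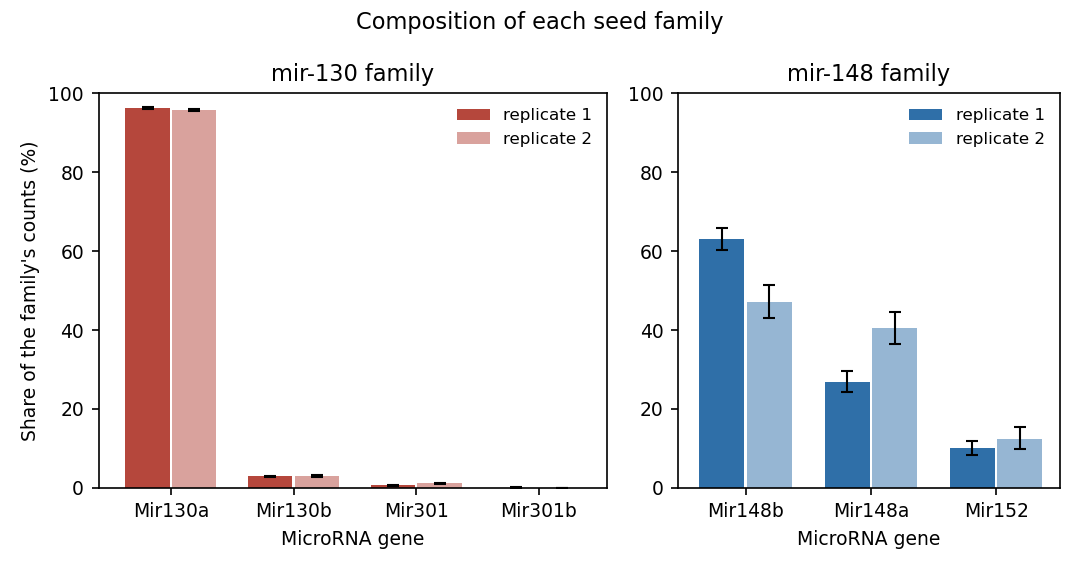
Share of each family's counts, in percent, held by each member in replicate 1 (dark bars) and replicate 2 (light bars), with exact 95% counting intervals. Mir130a holds 96.4% and 95.8% of the mir-130 family, and the share of Mir148b in its own family is 63.0% in replicate 1 and 47.2% in replicate 2.

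Summed over members, the mir-130 family exceeded the mir-148 family in each library. The mir-130 family held 0.542% of the sense counts (0.536 to 0.548) in replicate 1 and 0.642% (0.634 to 0.650) in replicate 2, or 0.592% ± 0.0707 (SD, n = 2). The mir-148 family held 0.0216% (0.0204 to 0.0229) and 0.0159% (0.0146 to 0.0172), or 0.0188% ± 0.00406. The ratio of the families' counts was 25.1 in replicate 1 and 40.4 in replicate 2. Between the libraries the families went opposite ways, with a log2 ratio of replicate 2 over replicate 1 of 0.18 (counting interval 0.16 to 0.21) for mir-130 and -0.51 (-0.65 to -0.36) for mir-148. Of the mir-148 family, Mir148b alone passed the test between libraries described next.

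The libraries were then compared gene by gene with a two-sided exact binomial test on scaled library sizes, with Benjamini-Hochberg adjustment over all 429 detected genes. This test asks whether 2 libraries of the same group differ beyond the counting error of reads, and it does not compare conditions. Like the intervals it treats each read as independent, so its p-values may be too small where reads are PCR copies. At an adjusted p of 0.05, 4 of the 6 detected members differed, where 61.3% of all detected genes did. The members' share is therefore near the background. Of the 4, Mir130a, Mir130b and Mir301 were higher in replicate 2, a direction found for 28.7% of detected genes, and Mir148b was lower in replicate 2, a direction found for 32.6%.

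Mir301 had the highest ratio among the members, at 1.96-fold higher in replicate 2 (log2 ratio 0.97, counting interval 0.70 to 1.25; exact binomial test, adjusted p = 1.86e-12). Mir148b was 1.90-fold lower in replicate 2 (log2 ratio -0.92, -1.13 to -0.72; exact binomial test, adjusted p = 2.6e-20). These were wide differences for this pair of libraries, since 86.9% and 85.1% of detected genes had a smaller absolute log2 ratio than Mir301 and Mir148b. An absolute log2 ratio of at least 1 was reached by 11.9% of detected genes and by no detected member. With library totals in place of TMM scaling, Mir301 reached 1.03.

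Mir130a and Mir130b differed by less. Mir130a was 1.13-fold higher in replicate 2 (log2 ratio 0.17, 0.15 to 0.20; exact binomial test, adjusted p = 2.17e-40), and 26.8% of detected genes had a smaller absolute log2 ratio. Mir130b was 1.18-fold higher in replicate 2 (log2 ratio 0.24, 0.10 to 0.39; exact binomial test, adjusted p = 0.00189). The counts of Mir130a are the highest of the members, and its ratio is the smaller of the pair. Mir148a had a log2 ratio of 0.08 (-0.17 to 0.33; exact binomial test, adjusted p = 0.609) and Mir152 of -0.20 (-0.65 to 0.23; adjusted p = 0.46), so neither passed the test, and their intervals allow changes of either sign. Mir301b was not in the tested set, and its log2 ratio of -1.34 had an interval from -3.21 to 0.02. The median absolute log2 ratio of the 6 detected members was 0.22, beside 0.33 for all detected genes.

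**Figure D3:**
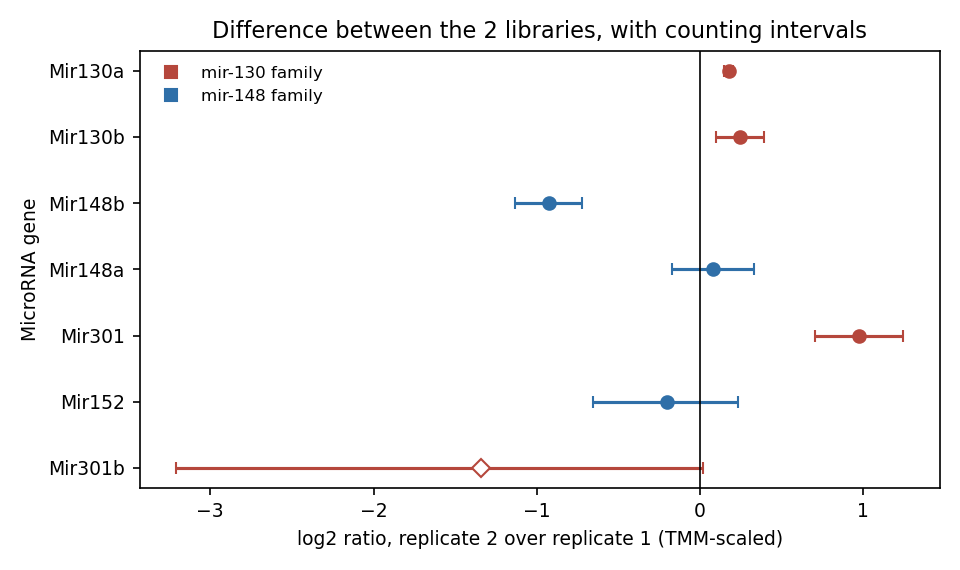
Log2 ratio of replicate 2 over replicate 1 for each member after TMM scaling, with exact 95% counting intervals, and an open diamond for Mir301b, which was not tested. Mir301 lies at 0.97 and Mir148b at -0.92, and the intervals of Mir148a, Mir152 and Mir301b include 0.

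**Figure D4:**
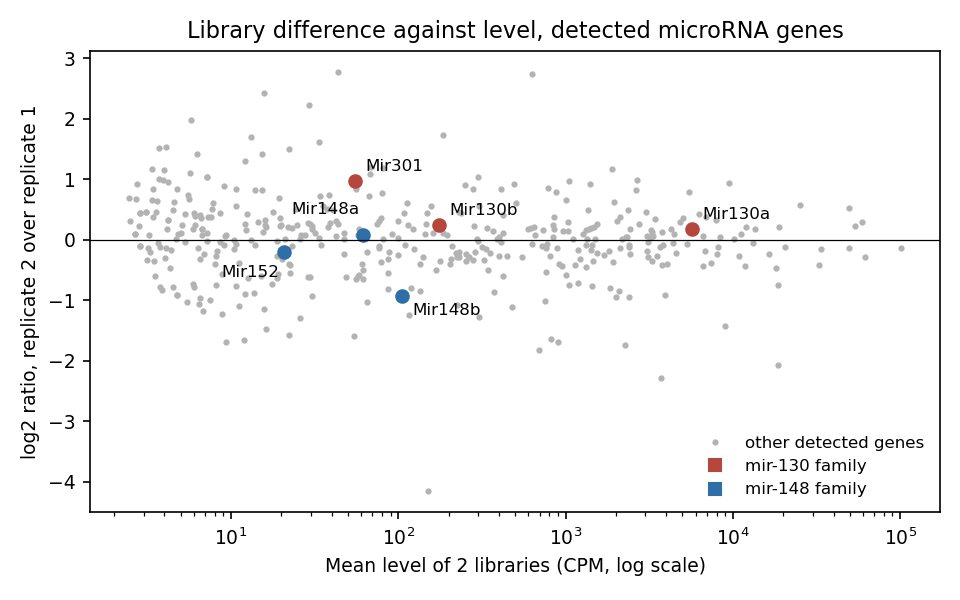
Log2 ratio of replicate 2 over replicate 1 against mean level in CPM (log axis) for the 429 detected microRNA genes, shown as grey points, with the 6 detected members in colour. The members lie between -0.92 and 0.97 and within the cloud of the other genes.

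RefSeq held 4 further genes with a mature arm of the mir-130 seed AGUGCAA and none outside the members with the mir-148 seed CAGUGCA. They are printed because their seed match is that of the members.
miR-130c: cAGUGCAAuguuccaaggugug
miR-721: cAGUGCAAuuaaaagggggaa
miR-6341: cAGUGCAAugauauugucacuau
miR-6389: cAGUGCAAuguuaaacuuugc

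All 4 were at 0 sense counts in both libraries. Of all 2202 genes 817 held a sense count in at least 1 library, so most annotated genes were at 0 too. For reads with 1 genomic match, 0 counts allow up to 0.548 CPM in the first library and up to 0.842 CPM in the second, and reads with more matches went uncounted. The 4 genes added no assigned read to the AGUGCAA seed group.

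The mir-17 seed list holds microRNAs known for promoting cell division, and each of its 6 genes has a RefSeq arm whose seed holds the letters AGUGC. It gives a comparison for the weight of 1 gene within a seed group. All 6 list members (Mir17, Mir20a, Mir20b, Mir93, Mir106a, Mir106b) were detected, where 19.5% of all genes were, and the list summed to 11303 ± 167 CPM. Its leading gene Mir93, at 5301 ± 15.4 CPM, was near the level of Mir130a and held 47.5% and 46.3% of the list's counts in replicates 1 and 2, where Mir130a held 96.4% and 95.8% of its family. Mir17 followed at 3657 ± 111 CPM. Of the 6, 2 were higher and 2 lower in replicate 2 by the exact binomial test, where 28.7% of all detected genes were higher and 32.6% lower, so 4 of 6 is near the background of 61.3%. The median log2 ratio of the list was 0.00.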

How the data were processed

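The authors deposited raw read counts per microRNA gene, 1 file per library, without pooling. Reads were placed on mm10 with GENCODE M21, per the notes deposited beside each file. The aligner, the counter and any filters were not given in the sources used here. In both libraries the strand column with the larger total over genes was used as sense, and 4 rows without a gene were left out. These hold unmapped reads, reads with several matches, reads outside microRNA genes and ambiguous reads, 63.6% and 62.4% of all reads. All 2202 identifiers matched GENCODE M21. The libraries were not copies of each other, with a chi-square of 523 per detected gene. CPM used sense counts on microRNA genes. Ratios added 0.5 counts and used TMM factors of edgeR 4.0.16 (0.979 and 1.02), with DESeq2 1.42.0 size factors as an alternative. Binomial tests and intervals used scipy 1.17.1 and were tested on simulated data. With 1 group no model contrast could be fitted. Named genes were the 7 members, their neighbours by mean level and the 2 highest genes of each related list; other genes of the seed and marker lists are named as list members, outside that rule. Members and lists were chosen with earlier results of these data known. Sequences came from RefSeq GRCm38.p6. One related list is not reported here.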

Additional observations from a re-analysis of the deposited data

Results flagged for a closer look

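Counts on the strand opposite to a member are outside the levels above. Mir130a had 4 such counts in replicate 1, above the 3 counts that a count of 0 allows, beside 28606 sense counts in the same library. Over all microRNA genes that library held 321748 counts on the opposite strand beside 5479267 sense counts. Where 2 microRNA genes overlap on opposite strands, the sense reads of one can enter this total for the other. Counted without regard to strand, the library held 5157975 counts, fewer than the sense counts. No member has a microRNA gene on its opposite strand, so the total is no like background for Mir130a. Mir130a had 0 in replicate 2, and the other 6 members had none in either library.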

How the results depend on the processing

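The members' summed level was 6106 CPM, and 2261 per 1000000 reads when all reads of the library were the denominator. The family shares were then 0.219% for mir-130 and 0.00692% for mir-148. Without Mir130a, an alternative chosen after seeing the data, the sum was 421 CPM. Leaving out each library gave a sum of 5634 to 6577 CPM, shares of 0.542% to 0.642% and 0.0159% to 0.0216%, and shares within the family of 95.8% to 96.4% for Mir130a and 47.2% to 63.0% for Mir148b. Counts without regard to strand moved the sum of the 7 members, the 2 family shares and the shares of Mir130a and Mir148b within their families by less than the SD. The 4 calls among members and the sign of the log2 ratio of each of the 6 detected members were the same under DESeq2 size factors, library totals, minimums of 1 and 50 counts, no minimum and counts without regard to strand. Library totals put 52.7% of calls over all genes higher in replicate 2, against 46.8% with TMM, and the log2 ratio of Mir301 at 1.03. A minimum of 1 count in each library brought Mir301b into the test, and its adjusted p over the settings that tested it ran from 0.0906 to 0.106 (exact binomial test). The test between libraries could not be run with a library left out. No paired analysis was possible because the series has 1 group. Depth limits Mir301b most.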

Other observations

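Mir148a, Mir130b and Mir301b have been linked to cholesterol transport. From a list drawn from work in other tissues, of 5 further microRNAs with such a role all 5 were detected, where 19.5% of all genes were, and they summed to 10400 and 10570.5 CPM. The list was chosen with earlier results of these data known, so this count is a description and tests nothing about the group. Mir128-1, in the same group of cholesterol-linked microRNAs and also a neuronal microRNA, reached 6638 ± 435 CPM, and Mir128-2 reached 2397 ± 62.7 CPM. By the exact binomial test 1 of the 5 was higher and 3 were lower in replicate 2, where 28.7% of all detected genes were higher and 32.6% lower.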
